A study of Mus musculus with 6 samples.

Results

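The genes described here encode the proteins of the cytosolic ribosome, measured by poly(A) RNA sequencing of dendritic cells that were sorted by flow cytometry from mouse bone marrow. They were taken by symbol: Rpl or Rps followed by a number (with an a, l, x or y suffix where there is one), together with Rplp0, Rplp1, Rplp2 and Rpsa, leaving out pseudogene rows and the Rps6k kinases. This gave 84 of the 24421 genes of the table, 51 of the large and 33 of the small subunit. A read was present for 83 of them and 81 were tested; Rpl10l had no read, and Rpl24 and Rpl28 had too few. Each member was taken by its symbol, while the family as a whole was chosen with earlier results of these data known.

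The study has 2 groups of C57BL/6 mice. WT cells came from wild-type mice (3 libraries, named WT libraries 3, 7 and 9 after the table's columns), and TCL cells from mice in which chronic lymphocytic leukaemia was modelled by adoptive transfer, that is by giving leukaemic B cells to recipients (3 libraries, TCL libraries 4, 8 and 10). The sort markers, the age and sex of the mice, what the WT mice received and the number of mice per library are not stated in the sources at hand. The p-values therefore measure only the spread between libraries, which may have a technical share. Reads recovered from the deposited values came to 17158819 to 25674314 per library.

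A ribosome has a small subunit that reads the mRNA and a large subunit that joins amino acids, and each holds 1 copy of nearly all of its proteins. Cells therefore make these proteins in near-equal amounts, and their mRNAs are among the most abundant of growing and of immune cells. Most ribosomal protein mRNAs begin with a C followed by a run of pyrimidines, the terminal oligopyrimidine (TOP) tract, through which mTORC1 and the RNA-binding protein LARP1 set their translation and stability. Their genes mostly have short transcripts and strong promoters without a TATA box, and they have left many processed pseudogenes in mammalian genomes.

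The start site regions are shown for genes that the results turn on, since the tract at the start is the sequence feature the family is best known for. RefSeq promoter windows of GRCm38.p6 (the assembly that mm10 stands for) were found for 63 members. Each line gives 30 bases, 15 on either side of an annotated start and 5′ to 3′ on the transcribed strand, with the longest run of C and T in capitals. Rps24 and Rps21 each have another annotated start, with a longest run of 4 bases, that is not shown.
Rpl27a (chr7:109519180-109519209, plus strand): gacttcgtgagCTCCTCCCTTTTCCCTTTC
Rpl15 (chr14:18270972-18271001, minus strand): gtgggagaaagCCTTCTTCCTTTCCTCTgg
Rps24 (chr14:24490663-24490692, plus strand): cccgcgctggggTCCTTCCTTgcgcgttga
Rpl39 (chrX:37085208-37085237, minus strand): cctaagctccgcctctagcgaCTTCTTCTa
Rps21 (chr2:180257364-180257393, plus strand): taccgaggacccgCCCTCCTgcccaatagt
Rpl37a (chr1:72711245-72711274, plus strand): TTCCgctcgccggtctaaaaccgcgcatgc
Rps18 (chr17:33955651-33955680, minus strand): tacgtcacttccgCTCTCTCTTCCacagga
Rpl7a (chr2:26910792-26910821, plus strand): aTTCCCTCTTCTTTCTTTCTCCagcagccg
Rpl10 (chrX:74270801-74270830, plus strand): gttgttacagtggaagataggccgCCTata
Rpl7l1 (chr17:46782642-46782671, minus strand): gtgaggCTgcgcaagcgcagtagctgaagc
The first 6 genes fell in TCL (below) and Rps18 had the most negative log2 fold change. The last 3 hardly differed between groups or had their mean higher in TCL. Rplp1, which also fell, had no window. The capitals mark the longest run anywhere in the 30 bases, so a run need not be part of the mRNA. In Rpl37a, which fell, the longest run, 4 bases, lies before the annotated start. In Rpl7a, whose log2 fold change was -0.01, the run spans the start and is the longest among the 10, at 21 bases. Whether the tract bears on the fold change was not tested. A run of at least 8 C or T within 20 bases of the start was present in 41.3% of 75 member windows and in 16.0% of 32851 windows of all genes. The median log2 fold change of tested members was -0.67 with such a run (n = 29) and -0.60 without it (n = 31).
Among whole windows, 250 bases before to 50 bases after a start and read on both strands, CCGGAAG (the core bound by ETS factors such as GABP) was found in 36% of member windows and 8.86% of all windows. AAGATGGC, the YY1 motif, was in 10.7% against 2.75%. GGGCGG, bound by SP1, was in 60% against 35.7%. TATAAA, the TATA box, was in 9.33% against 13.6%, and CACGTG, the E-box, in 10.7% against 7.15%. The median log2 fold change was -0.75 for the 26 tested members with CCGGAAG and -0.56 for the 34 without.

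Ribosomal protein genes took a smaller share of the reads in TCL, which is given as a description with no test. The 84 genes held 3.29%, 3.29% and 2.65% of all reads in WT libraries 3, 7 and 9, and 2.28%, 2.31% and 1.66% in TCL libraries 4, 8 and 10. The groups did not overlap, although WT library 9 lay nearer to TCL libraries 4 and 8 than to the other WT libraries. The mean was 3.07% ± 0.368 in WT and 2.08% ± 0.363 in TCL (SD, n = 3 each), a ratio of 1.48. Fewer cells rich in these mRNAs and less of them per cell cannot be told apart in bulk samples.
The large subunit genes went from 1.52% ± 0.167 to 1.07% ± 0.179 of reads and the small subunit genes from 1.55% ± 0.201 to 1.01% ± 0.186. Large over small subunit reads stood at 0.985, 0.961 and 1.01 in WT libraries 3, 7 and 9 and at 1.02, 1.08 and 1.09 in TCL libraries 4, 8 and 10. This ratio was thus a little higher in every TCL library, with the closest values of the groups, 1.01 and 1.02, nearly touching. Reads of other genes with transcripts up to 1000 bases, a measure of how short transcripts fared, went from 12.3% ± 2.07 to 9.82% ± 1.85 and overlapped between groups.

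**Figure D1:**
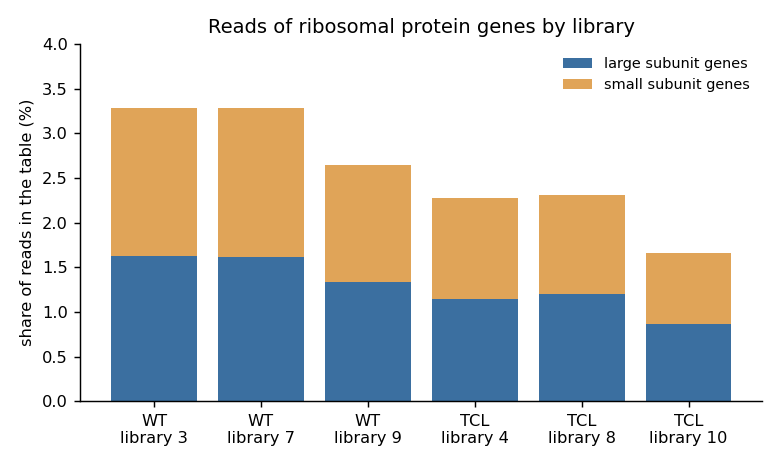
Share of all reads of the table (%, from 0) held by the 84 ribosomal protein genes in each library, stacked by large (blue) and small (orange) subunit. The 3 WT libraries sit between 2.65% and 3.29% and the 3 TCL libraries between 1.66% and 2.31%.

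Gene by gene, the family leaned one way. Of 81 tested members 72 (88.9%) had a negative log2 fold change (TCL against WT), against 50% of all 13010 genes tested, and the median was -0.62 against 0.00 over all genes. The middle 50% of the members lay between -0.78 and -0.32 and the whole range ran from -1.20 to 1.09 (Rpl26, under 1 CPM in either group). In 48 members (59.3%) all 3 TCL libraries were below all 3 WT libraries, against 14.2% of all genes, and in 0 members above, against 14.1%.
At an unadjusted p under 0.05, 43 members (53.1%) were lower against 11.2% of all genes. Few passed the adjusted test: with edgeR's quasi-likelihood test and Benjamini-Hochberg adjustment over all genes, 7 of 81 (8.64%) fell at an adjusted p under 0.05, against 2.61% of all genes. None rose, against 2.03% (4.64% of genes changed in either direction); 0 rose at an unadjusted p under 0.05, and 0 by DESeq2, limma-voom or limma with a trend. At an adjusted p under 0.1, 29 members were lower, against 5.07% of all genes.

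The number of calls depended on the tool and on single libraries, while the median stayed negative in every setting run. DESeq2 called 33 members lower, where it called 5.67% of all genes, and with no filter on low counts edgeR called 18, against 2.54%. The authors' deposited table gives an adjusted p under 0.05 and a lower value in TCL to 32 of 83 members and a higher value to 0, against 4.21% of 16753 genes lower; the 7 called here were among the 32.
When 1 library was left out, edgeR called 0 members if it was library 3 or 7 of WT or library 4 or 10 of TCL. Of all genes those fits called 1.33%, 1.33%, 0.971% and 1.66% lower. It called 8 members without TCL library 8, against 3.22% of all genes, and 9 without WT library 9, against 1.13%. The median log2 fold change over these settings ran from -0.42 without TCL library 10 to -0.71 without WT library 9 or TCL library 4. Scaling to library size alone gave 8 lower, against 2.28% of all genes, 0 higher and a median of -0.52, though it moved the share of higher genes among all calls from 43.7% to 54.3%.

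The same libraries tended to be lowest and highest from gene to gene. TCL library 10 had the lowest CPM (reads per 1000000, scaled with TMM factors) of all 6 libraries for 61 of the 81 tested members. The highest value was in WT library 3 for 40 members, in WT library 7 for 32, in WT library 9 for 2 and in a TCL library for 7. WT library 7 stood at either end of its group: it was the highest WT library for 35 members and the lowest for 17, among them Rpl7, Rps7, Rpl3, Rpl6, Rpl9 and Rps27.

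**Figure D2:**
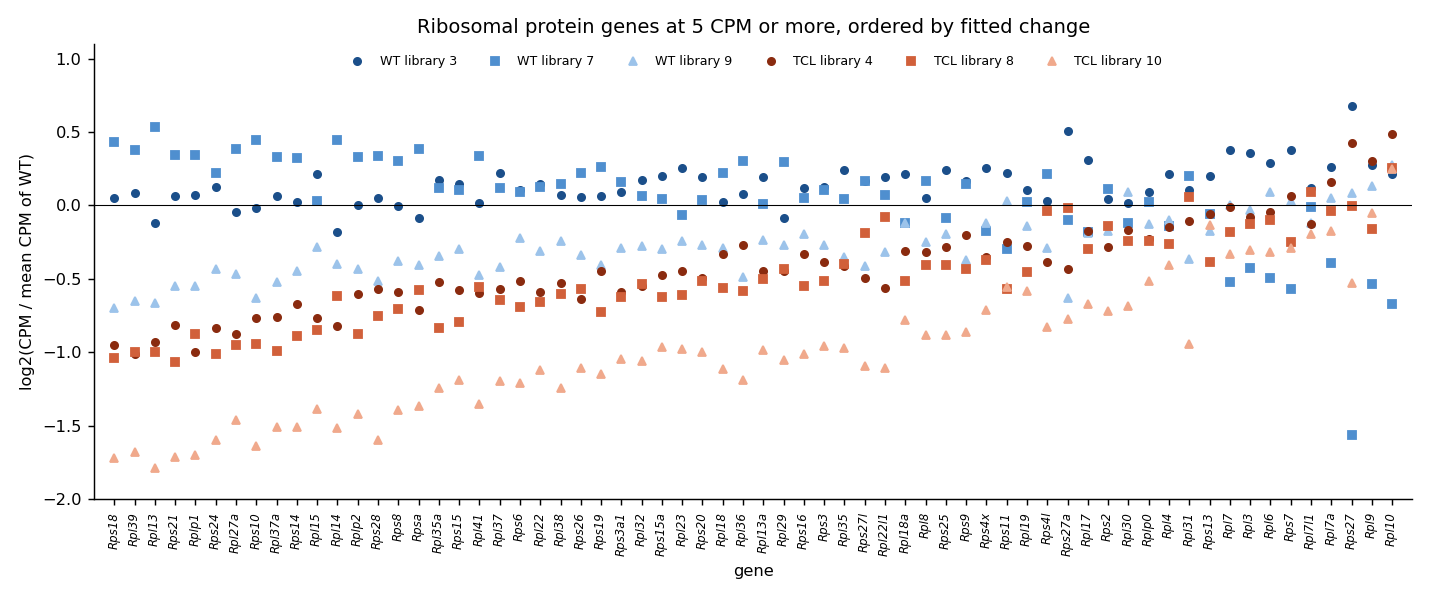
CPM of each library over the gene's mean CPM in WT (log2) for the 65 members with a mean of at least 5 CPM (1 is not drawn), ordered by fitted change; blue marks are WT and red to orange marks TCL libraries. TCL library 10 (light orange triangles) is the lowest for most genes, and at the right end, from Rpl7 on, WT library 7 (blue squares) lies below the other WT libraries in all genes but Rpl7l1, and the groups mix.

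The 7 genes that fell were spread over both subunits. Rplp1 encodes an acidic protein of the stalk, the flexible arm of the large subunit that draws in translation factors. It had 1747, 2112 and 1137 CPM in WT libraries 3, 7 and 9 and 835, 909 and 513 CPM in TCL libraries 4, 8 and 10. The means were 1666 ± 493 and 752 ± 210.2 CPM (log2 fold change -1.15, SE 0.27, adjusted p 0.0462).
Rpl39, one of the smallest ribosomal proteins, lines the tunnel through which the new peptide leaves. Its values were 300.4, 368 and 180.1 CPM in WT and 140.2, 142 and 88.1 CPM in TCL, with libraries in the same order. The means were 283 ± 95.2 and 123 ± 30.6 CPM (log2 fold change -1.20, SE 0.28, adjusted p 0.0419).
For Rpl37a, a zinc-finger protein of the large subunit, WT libraries gave 290.2, 349 and 193 CPM and TCL libraries 164, 139.6 and 97.6 CPM (log2 fold change -1.05, SE 0.25, adjusted p 0.0462). Rpl27a, also of the large subunit, had 45.96, 61.6 and 34.3 CPM in WT and 25.8, 24.4 and 17.1 CPM in TCL (log2 fold change -1.07, SE 0.24, adjusted p 0.0409). In each of these genes WT library 7 was the highest and TCL library 10 the lowest.
Rpl15, a large subunit protein whose human gene is mutated in Diamond-Blackfan anaemia, a failure of red cell formation, stood at 31.4, 27.6 and 22.2 CPM in WT and 15.9, 15.01 and 10.4 CPM in TCL (log2 fold change -0.97, SE 0.23, adjusted p 0.0435). It was the 1 called gene with its highest value in WT library 3.

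In the small subunit, Rps24, another Diamond-Blackfan anaemia gene that is needed to process the precursor of the small subunit's RNA, had 948, 1015 and 644 CPM in WT libraries 3, 7 and 9 and 487, 431 and 287 CPM in TCL libraries 4, 8 and 10. With means of 869 ± 198 and 402 ± 103 CPM it had the smallest adjusted p of the family (log2 fold change -1.11, SE 0.24, adjusted p 0.0333). Rps21 had 522, 634 and 341 CPM in WT and 283, 238 and 152 CPM in TCL (log2 fold change -1.15, SE 0.27, adjusted p 0.0464). In all 7 genes the lowest WT library, WT library 9, was above the highest TCL library.
Each of the 7 lost its call in at least 4 of the 6 fits that left out 1 library, with adjusted p-values up to 0.153, and none turned its sign in any setting. Rps24, Rpl39 and Rpl27a were called in every fit that kept all libraries. Rpl37a, Rps21 and Rplp1 missed the threshold with a filter of 5 CPM in 3 libraries.
Some genes with log2 fold changes as large did not pass. Rps18, in the head of the small subunit, had 208, 270.5 and 124 CPM in WT and 104, 97.6 and 60.9 CPM in TCL (log2 fold change -1.20, SE 0.29, adjusted p 0.0505). Rpl13, of the large subunit, had 81.4, 128 and 55.7 CPM and 46.4, 44.3 and 25.6 CPM (log2 fold change -1.19, SE 0.31, adjusted p 0.0659). The WT libraries of these genes spread more than those of Rps24, from WT library 7 down to WT library 9, and the groups still did not overlap. Rps10, a Diamond-Blackfan anaemia gene of the small subunit, had means of 118 ± 42.4 and 56.2 ± 16.4 CPM (log2 fold change -1.07, SE 0.29, adjusted p 0.0721).

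**Figure D3:**
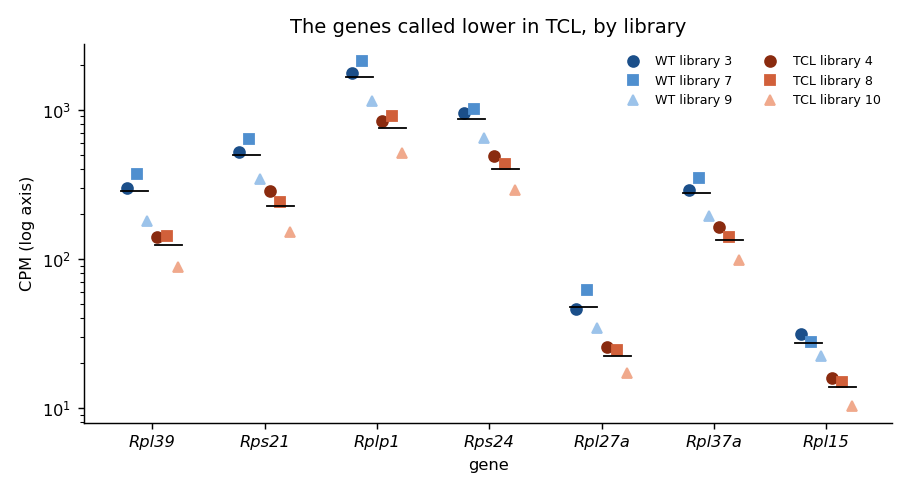
CPM (log axis) of the 7 genes that fell in TCL, by library; horizontal lines are the means of WT (left) and TCL (right), n = 3 each. In every gene the 3 WT marks lie above the 3 TCL marks, with WT library 9 as the lowest WT library and TCL library 10 as the lowest of all.

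Within the large subunit, the stalk genes had the most negative median of the structural groups, -0.80 over 4 genes. Of the 4, Rplp1 fell, against 2.61% of all genes. The median of -0.80 rests in part on Rpl12 of the stalk base, which had a mean of 1.95 CPM, overlapping groups and a log2 fold change of -0.68 (SE 0.61). The median was -0.55 in a fit with the trend with transcript length and GC content removed, and the medians of the groups that follow are also given in that fit. Rplp2, the partner of Rplp1 in the stalk dimer, had 725, 911 and 536 CPM in WT and 478, 395 and 271 CPM in TCL (log2 fold change -0.93, SE 0.25, adjusted p 0.0693). Rplp0, which anchors the dimers to the ribosome, had 1370.3, 1303 and 1178 CPM in WT and 1097, 1087 and 899 CPM in TCL (log2 fold change -0.32, SE 0.16, adjusted p 0.259). The stalk genes thus had unequal log2 fold changes, -1.15 and -0.93 for the dimer proteins and -0.32 for the anchor; the difference between them was not tested.
Of 9 genes for proteins of the exit tunnel and its rim 1 fell, Rpl39, against 2.61% of all genes. The median was -0.43 (-0.12 with the trend removed). Rpl22, which sits at the rim and is known in mice for its part in lymphocyte development, had 575, 567 and 419 CPM in WT and 347, 331 and 239 CPM in TCL (log2 fold change -0.77, SE 0.20, adjusted p 0.0567). Rpl5 and Rpl11, which join the ribosome together with the 5S RNA and also bind the p53 regulator Mdm2, both had few reads. Rpl11 had 5.82, 3.62 and 3.01 CPM in WT and 3.004, 2.69 and 1.498 CPM in TCL (adjusted p 0.314), and Rpl5 had 1.37, 1.29 and 0.990 CPM and 1.44, 2.04 and 0.786 CPM (adjusted p 0.847). The log2 fold changes were -0.79 (SE 0.43) for Rpl11, whose TCL libraries were all below its WT libraries, and 0.22 (SE 0.57) for Rpl5, whose groups overlapped. Neither gene was called by edgeR's adjusted or unadjusted p, or by DESeq2, limma-voom or limma with a trend, and such low levels leave these tests little power.

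In the small subunit, the genes around the path of the mRNA had a median log2 fold change of -0.76 (-0.33 with the length and GC trend removed) and all 8 were negative as first fitted. None of the 8 passed the adjusted test. At an unadjusted p under 0.05, 6 were lower, against 11.2% of all genes. DESeq2 called 5, against 5.67% of all genes lower, limma-voom 1 (Rps15) and limma with a trend 0. Rps15 had 1753, 1702 and 1285 CPM in WT and 1059.7, 911 and 692 CPM in TCL (log2 fold change -0.83, SE 0.20, adjusted p 0.0504). Rps14, whose loss on one copy is known from a human myelodysplastic syndrome, had 1938, 2389 and 1402 CPM and 1198, 1029.8 and 672 CPM (log2 fold change -0.98, SE 0.26, adjusted p 0.0632). These are among the most abundant genes of the family, and neither had overlapping groups.
Rps3, at the mRNA entry, is also known for DNA repair and as a partner of NF-κB; it had 2072, 2043 and 1571 CPM in WT and 1454, 1329 and 978 CPM in TCL (log2 fold change -0.60, SE 0.20, adjusted p 0.121). Rpsa, first described as a laminin receptor, had means of 179 ± 49.8 and 99.5 ± 26.7 CPM (log2 fold change -0.85, SE 0.25, adjusted p 0.0909).

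Diamond-Blackfan anaemia genes, whose human counterparts are mutated in that disease, were tested in 18 cases. Of these 2 fell (Rps24 and Rpl15), against 2.61% of all genes, and 0 rose, against 2.03%. The median was -0.67 (-0.23 with the trend removed). At an unadjusted p under 0.05, 9 were lower, against 11.2% of all genes. DESeq2 called 6 lower, against 5.67% of all genes, and limma-voom and limma with a trend called 2 each. Rps19, the gene most often mutated in patients, had 296, 338 and 213 CPM in WT and 207, 171 and 127 CPM in TCL (log2 fold change -0.74, SE 0.22, adjusted p 0.0945). The group was not uniform, with 13 negative and 5 positive log2 fold changes. Rps7 had means of 152 ± 47.5 and 137 ± 19.1 CPM, a log2 fold change of -0.15. The values of Rpl26 and Rpl27, whose mean levels were under 2 CPM, were 1.09 and 0.62 (adjusted p 0.517 and 0.573).
A further 7 members are known for roles in signalling or in selective translation, and their median was -0.63 (-0.36 with the trend removed). None of the 7 changed in edgeR's quasi-likelihood test, and 6 were lower at an unadjusted p under 0.05, against 11.2% of all genes. DESeq2 called 5 lower (Rps6, Rpl13a, Rps3, Rpl23 and Rpl38), against 5.67% of all genes, and limma-voom and limma with a trend called 0. Rps6, the protein that S6 kinases phosphorylate, had 24.2, 23.9 and 19.3 CPM in WT and 15.8, 13.9 and 9.74 CPM in TCL (log2 fold change -0.78, SE 0.23, adjusted p 0.0894). Rpl13a, which in human myeloid cells leaves the ribosome after interferon-γ and silences inflammatory mRNAs, had 2455, 2167 and 1831 CPM and 1576, 1517 and 1085 CPM (log2 fold change -0.63, SE 0.20, adjusted p 0.104). All WT libraries of both genes were above all TCL libraries.
Rpl23, which can bind Mdm2, had means of 383 ± 67.8 and 242 ± 43.9 CPM (adjusted p 0.0847). Rpl38, needed in mouse embryos to translate Hox mRNAs, had 83.1 ± 11.3 and 49.2 ± 12.3 CPM (adjusted p 0.0733). Rps25, which serves initiation at internal ribosome entry sites, had 267 ± 42.7 and 188 ± 39.01 CPM (adjusted p 0.172), and Rps27a, made as a fusion with ubiquitin, 8.004 ± 3.13 and 6.17 ± 1.63 CPM (adjusted p 0.559). The groups of Rps27a overlapped, and those of the other 3 genes did not.

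At the other end stood genes whose groups overlapped. Rpl10, which joins the large subunit late in its assembly, had 16.5, 8.95 and 17.2 CPM in WT libraries 3, 7 and 9 and 19.9, 16.97 and 16.9 CPM in TCL libraries 4, 8 and 10 (log2 fold change 0.33, SE 0.26, adjusted p 0.483). Rpl9 had 76.9, 43.7 and 69.5 CPM in WT and 78.2, 56.7 and 61.3 CPM in TCL (log2 fold change 0.04, SE 0.22, adjusted p 0.925). WT library 7 was the lowest library for both.
Rpl7a had 96.3, 61.2 and 83.1 CPM in WT and 89.5, 78.1 and 71.2 CPM in TCL (log2 fold change -0.01, SE 0.19, adjusted p 0.978). Rpl7 had 392, 210.2 and 303 CPM and 299, 267 and 240.0 CPM (log2 fold change -0.17, SE 0.22, adjusted p 0.685), with the same low value in WT library 7. Rpl3, which lies close to the centre that joins amino acids, had 127, 73.9 and 97.2 CPM and 94.1, 91.1 and 80.7 CPM (log2 fold change -0.17, SE 0.20, adjusted p 0.650).
Rpl6 had means of 211 ± 55.4 and 189.5 ± 18.4 CPM, and a log2 fold change of -0.15 (adjusted p 0.693). None of these genes was called higher or lower in edgeR's quasi-likelihood test.

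Several members have a sister gene, and the coding sequences are shown to make clear how far reads can tell the sisters apart. Each line gives the first 90 bases of a GENCODE M21 coding sequence (GRCm38), with bases in capitals where the copy differs from the gene named first.
Rps27: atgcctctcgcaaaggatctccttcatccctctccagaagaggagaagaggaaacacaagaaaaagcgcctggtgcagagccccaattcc
Rps27l: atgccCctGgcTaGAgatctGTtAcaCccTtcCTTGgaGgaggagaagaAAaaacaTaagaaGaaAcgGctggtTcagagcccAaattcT
Rps27rt: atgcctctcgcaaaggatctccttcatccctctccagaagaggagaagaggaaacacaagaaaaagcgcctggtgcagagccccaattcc
Rpl39: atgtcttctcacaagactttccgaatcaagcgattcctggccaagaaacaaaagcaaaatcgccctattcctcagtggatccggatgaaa
Rpl39l: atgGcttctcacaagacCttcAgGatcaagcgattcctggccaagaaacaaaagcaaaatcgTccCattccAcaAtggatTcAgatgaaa
Rps27l differs from Rps27 at 24 of these 90 bases and shares 76.2% of the 252 bases of the coding sequence. Rps27rt, a retrotransposed copy on chromosome 9, is identical to Rps27 over the whole coding sequence; it is listed with 0 reads in every library. Rpl39l shares 85.0% of the 153 bases of Rpl39.
Rps27 had 8.401, 1.78 and 5.55 CPM in WT and 7.05, 5.22 and 3.63 CPM in TCL (log2 fold change 0.01, SE 0.51, adjusted p 0.994). Its sister Rps27l had 66.7, 66.6 and 44.6 CPM in WT and 42.1, 52.01 and 27.9 CPM in TCL (log2 fold change -0.54, SE 0.25, adjusted p 0.230). Per kilobase of transcript, Rps27l was at 100.2 CPM per kb and Rps27 at 15.3 CPM per kb over all libraries, and 1.35% of the 50-base stretches of Rps27 were found in no other transcript against 77.6% for Rps27l.
Rpl39l, a copy known for expression in testis, had means of 0.646 ± 0.421 and 0.385 ± 0.197 CPM, and thus in WT and TCL 0.234% ± 0.124 and 0.316% ± 0.133 of the level of Rpl39. Rpl22l1, which Rpl22 is known to repress in mice, had 23.9, 21.9 and 16.7 CPM in WT and 14.1, 19.7 and 9.698 CPM in TCL (log2 fold change -0.52, SE 0.28, adjusted p 0.294). Relative to Rpl22 it stood at 4.01% ± 0.141 in WT and 4.699% ± 1.103 in TCL.
Rpl7l1, a copy of Rpl7 linked to ribosome assembly, had 114, 104 and 96.4 CPM in WT and 95.9, 111 and 91.6 CPM in TCL (log2 fold change -0.07, SE 0.15, adjusted p 0.810). Rpl3l, known from heart and skeletal muscle, had 2.58, 7.23 and 2.93 CPM and 4.92, 5.71 and 3.56 CPM (log2 fold change 0.16, SE 0.45, adjusted p 0.859). Rps4l, a copy of Rps4x, had means of 21.6 ± 3.75 and 16.6 ± 4.42 CPM (log2 fold change -0.38, SE 0.24, adjusted p 0.382), and Rps4x had 405 ± 68.9 and 293 ± 39.5 CPM (log2 fold change -0.47, SE 0.18, adjusted p 0.160).
The ratio of copy to parent was compared for 6 pairs by exact permutation of the library labels (two-sided), where 3 against 3 libraries allow no p below 0.1. No pair reached it: the p-values ran from 0.4 to 0.8 (0.72 to 0.8 after Benjamini-Hochberg adjustment). Of 7 tested copies (Rpl36al counted among them) 0 changed in edgeR's quasi-likelihood test, 1 had an unadjusted p under 0.05 (Rpl36al), and DESeq2, limma-voom and limma with a trend called 0. Of the 8 parents 1 fell (Rpl39), against 2.61% of all genes. The median log2 fold change was -0.49 for copies and -0.30 for parents, and -0.06 and 0.03 with the trend removed.

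Members with little sequence of their own had a lower median level and a median log2 fold change closer to 0. For each member the share of its 50-base stretches found in no transcript of another annotated gene was counted; the median was 46.8%, 47 members were under 50% and 18 under 20%, and 81 shared at least 1 stretch with an annotated pseudogene. Members with under 20% unique sequence had a median level of 17.7 CPM per kb and a median log2 fold change of -0.19. Of the 17 tested there, 11 were negative and 6 positive. The class still held Rps18 (13.3% unique, log2 fold change -1.20) and Rpl13 (19.7% unique, log2 fold change -1.19). The medians were 158 CPM per kb and -0.50 from 20% to 50%, 295 CPM per kb and -0.73 from 50% to 80%, and 153 CPM per kb and -0.65 from 80% up. With the length and GC trend removed the median log2 fold changes of the 4 classes were 0.04, -0.15, -0.41 and -0.40.
Of the 7 genes that fell, 0 had under 20%, 1 had 20% to 50% (Rplp1, 40%), 4 had 50% to 80% and 2 had over 80% (Rpl39 and Rps24). In the lowest class 4 of 17 tested genes were lower at an unadjusted p under 0.05, against 11.2% of all genes lower and 22.4% in either direction. DESeq2 called 3 lower, against 5.67% of all genes, and limma-voom and limma with a trend called 0. How the counting treated reads with several matches is not stated in the sources at hand, and the part of shared sequence in these differences was not tested.
The highest levels per length belonged to Rps15 (2468 CPM per kb), Rplp1 (2423), Rps14 (2409) and Rps9 (1991). At the lowest end were Rpl10l with no read, Rpl28 (0.142 CPM per kb), Rpl24 (0.607) and Rpl39l (0.640). Rpl10l is known from testis, but Rpl24, Rpl28 and Rpl5 encode proteins of every ribosome: Rpl24 had 5 to 20 reads per library and Rpl28 0 to 9. Their shares of unique sequence were 18.3%, 52.6% and 6.16%. The class of 50 to 80% unique sequence, which holds Rpl28, had a median of 295 CPM per kb. How reads that match several places were counted is not stated, so levels of members with little unique sequence are uncertain.

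**Figure D4:**
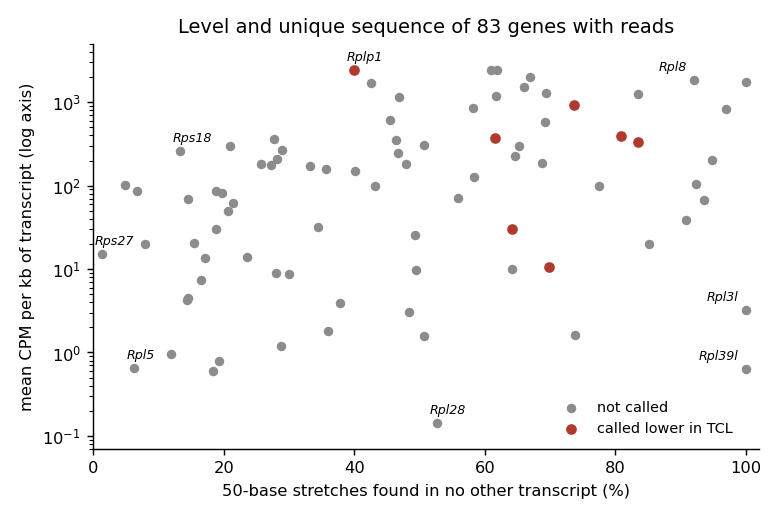
Mean level over the 6 libraries (CPM per kb of transcript, log axis) of the 83 members with reads against the share of their 50-base stretches found in no other transcript (%); red marks are the 7 genes that fell in TCL. Genes at the left have lower levels, with medians of 17.7 CPM per kb under 20% and 295 CPM per kb from 50% to 80%, and no red mark lies under 20%.

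Transcript length went with the fold change across the whole table, and ribosomal protein transcripts are short. Their median length was 819 bases against 2809 bases over all tested genes, with a GC content of 50.8% against 50.5%. Other genes with transcripts up to 1000 bases had a median log2 fold change of -0.39 and 80.2% of the 936 were negative, against -0.63 for the 56 members of that length. Over 1000 bases the 25 members had a median of -0.60 and the 11903 other genes 0.03.
A fit in which the trend with transcript length and GC content was removed from each library brought the median of the members to -0.21, against 0.01 over all genes. In that fit 59 of 81 members (72.8%) were negative, against 48.5% of all genes. It called 8 members lower (9.88%, against 2.95% of all genes) and 0 higher, and 6 of the 8 were among the 7. Rps18 (log2 fold change -0.70, adjusted p 0.0460) and Rpl22 (-0.72, adjusted p 0.0439) came in and Rpl37a (-0.56, adjusted p 0.0542) dropped out.
The longer members kept more of their difference. Rps24, at 1613 bases, went from -1.11 to -0.99, and Rpl15, at 1922 bases, from -0.97 to -0.90. Rps21, at 394 bases, went from -1.15 to -0.55, and Rplp1, at 499 bases, from -1.15 to -0.61. In the fit without the trend the median was -0.17 for members up to 1000 bases and -0.36 for longer ones, against 0.01 for other genes of either class. Whether the length trend arose in the cells or in the libraries was not tested.

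**Figure D5:**
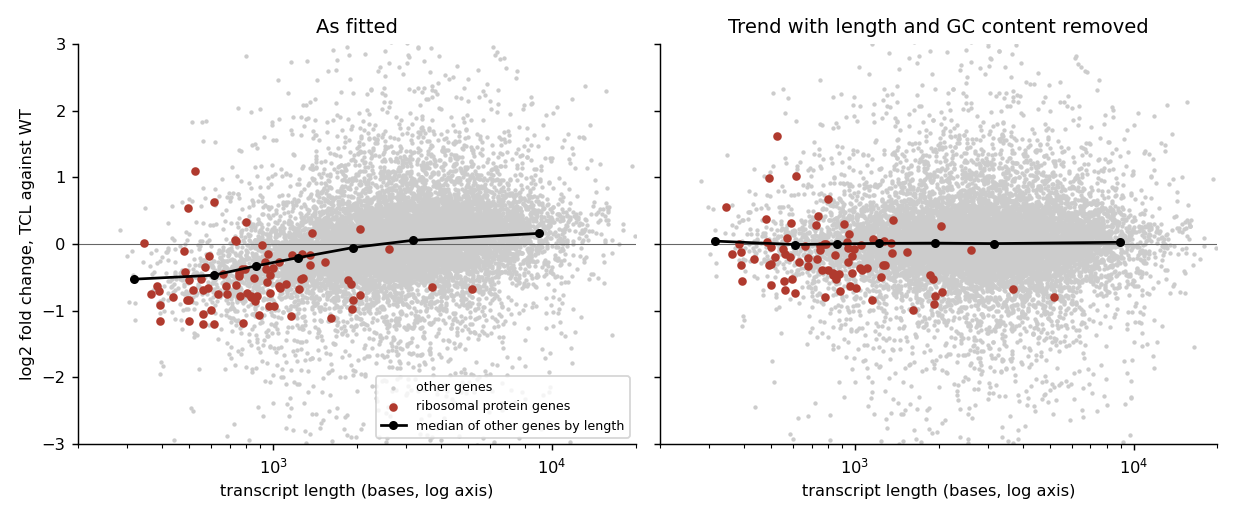
Log2 fold change (TCL against WT) of all tested genes against transcript length (bases, log axis), as fitted (left) and with the trend with length and GC content removed (right); red points are ribosomal protein genes, grey points other genes (those beyond the axis limits are not drawn) and the black line the median of other genes by length class. On the left the black line is below 0 for short transcripts, and up to 1000 bases the median is -0.63 for red and -0.39 for grey points; on the right the line is near 0 and the median of the red points is -0.21.

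Markers of other cells differed between the same libraries. The counts of lower and higher markers are from edgeR's test unless another is named. In that test 2.61% of all genes were lower and 2.03% higher. The sum over 13 macrophage markers lay between 11494 and 13156 CPM in WT and between 4391 and 5858 CPM in TCL, with 6 genes lower and 1 higher. The 16 B cell markers summed to values between 460.0 and 1063 CPM in WT and between 266 and 398 CPM in TCL, with 7 lower, and the 6 plasma cell markers to values between 1128 and 1982 CPM in WT and between 336 and 521 CPM in TCL, with 1 lower (Jchain). The summed levels of these 3 lists were lower in every TCL library than in any WT library.
The 18 dendritic cell markers summed to values between 49136 and 64953 CPM in WT and between 16978 and 37762 CPM in TCL. In edgeR's test 6 were lower (Flt3, Batf3, Irf4, Clec9a, Cd209a and Clec10a) and 0 higher, while DESeq2 called 9 lower and 1 higher. The log2 fold change was negative for 13 and positive for 5, up to 1.25, and no marker of the list was at 0. The 12 neutrophil markers summed to values between 29813 and 62296 CPM in WT and between 15200.5 and 34205 CPM in TCL. None was called in edgeR's quasi-likelihood test, and 4 had an unadjusted p under 0.05, against 22.4% of all genes in either direction. DESeq2 called 1 lower (S100a9), against 5.67% of all genes, and limma-voom and limma with a trend called 0. The sums of the groups overlapped for neutrophil markers and not for dendritic cell markers.
The 16 markers of cycling cells summed to values between 1108 and 1290.2 CPM in WT and between 1090.3 and 1828 CPM in TCL; 0 were called by any of these tools and 1 had an unadjusted p under 0.05 (Mki67). Of 11 erythroid markers, whose summed level lay between 194 and 282 CPM in WT and between 373 and 996 CPM in TCL, 7 were tested and 1 was higher (Slc4a1), while Hba-a1, Hba-a2 and Hbb-bt were at 0 in every library. All 7 had a positive log2 fold change (median 1.25), and DESeq2 called 4 higher. An unadjusted p under 0.05 was found for 6, against 22.4% of all genes in either direction. In 5 all TCL libraries were above all WT libraries, against 14.1% of all genes. The 12 stromal and vessel markers (11 tested) summed to values between 239 and 516 CPM in WT and between 206 and 302 CPM in TCL. Of these, 7 were lower and 1 higher, and DESeq2 called 8 lower and 1 higher. Their median log2 fold change was -4.54 (range -7.26 to 1.20), a larger difference than the overlapping sums show. Among T and NK cell markers 1 of 11 was higher (Cd8a) and among progenitor markers 1 of 9 was lower (Flt3). The part of these cells in the lower ribosomal protein reads was not tested.

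Genes close to the family in function had smaller median differences. Of 4 genes for ribosomal proteins that the symbol rule leaves out, none changed in edgeR's quasi-likelihood test or by the other tools, 1 had an unadjusted p under 0.05 (Rpl36al), against 22.4% of all genes in either direction, and the median log2 fold change was -0.40. In the fit without the length and GC trend that median was 0.00, with -0.16 for Gnb2l1, 0.20 for Fau and 0.00 for Rpl36al. Gnb2l1, which encodes the scaffold RACK1 on the small subunit, had 2071, 1615 and 1623 CPM in WT and 1592, 1386 and 1264 CPM in TCL (log2 fold change -0.32, SE 0.17, adjusted p 0.301).
Fau, a fusion of a ubiquitin-like and a small subunit protein, had 23.8 ± 6.34 CPM in WT and a log2 fold change of -0.25 (adjusted p 0.559). Rpl36al, a copy of Rpl36a, had 131 ± 25.2 and 93.2 ± 20.6 CPM (adjusted p 0.203). All 4 had a lower mean CPM in TCL.

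Other mRNAs with a TOP tract, for elongation factors and similar proteins, had a median log2 fold change of -0.22 over 20 genes, 16 of them negative. None changed in edgeR's quasi-likelihood test, by limma-voom or by limma with a trend. An unadjusted p under 0.05 was found for 4 of the 20, against 22.4% of all genes in either direction. DESeq2 called 2 lower (Eef1b2 and Nap1l1), against 5.67% of all genes. Eef1b2, an exchange factor of elongation factor 1, had 679.6, 667 and 526 CPM in WT and 435, 415 and 317 CPM in TCL (log2 fold change -0.68, SE 0.18, adjusted p 0.0624). In the fit without the length and GC trend it had a log2 fold change of -0.62 and passed, while the median of the list was -0.03.
Nap1l1, a histone chaperone, had means of 233 ± 23.8 and 165 ± 18.6 CPM (adjusted p 0.103), and Eef1g, another elongation factor 1 subunit, 105 ± 4.48 and 81.4 ± 12.8 CPM (adjusted p 0.210). Gas5, a non-coding TOP RNA, had 257 ± 29.1 and 181 ± 32.1 CPM (adjusted p 0.132). In these 4 genes, named for the smallest adjusted p of the list, the groups did not overlap. They were the only genes of the 20 with all TCL libraries below all WT libraries, which held for 14.2% of all genes.

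Over 50 genes for ribosome assembly and RNA polymerase I the median was -0.01 (0.03 with the trend removed), with 26 negative and 24 positive. None passed edgeR's quasi-likelihood test, DESeq2, limma-voom or limma with a trend. An unadjusted p under 0.05 was found for 9 of the 50, against 22.4% of all genes in either direction. Groups did not overlap in 8 genes lower and 9 higher in TCL, against 14.2% and 14.1% of all genes. Ddx21, a helicase of the nucleolus, had 88.3, 92.5 and 95.1 CPM in WT and 114, 122 and 129 CPM in TCL (log2 fold change 0.41, SE 0.13, adjusted p 0.120), all TCL libraries being above all WT libraries. Nip7, which serves large subunit maturation, had means of 41.6 ± 3.98 and 29.5 ± 4.78 CPM (log2 fold change -0.50, SE 0.18, adjusted p 0.141). Gar1 and Nop10, of the particles that modify ribosomal RNA, had log2 fold changes of -0.67 and -0.54 (adjusted p 0.157 and 0.160).
The 21 regulators of ribosomal protein synthesis, among them Myc, Mtor, Larp1 and their partners, had a median of 0.24 (0.10 with the trend removed), with 17 positive. None passed edgeR's test, limma-voom or limma with a trend. Of the 21, 1, Eif4ebp2, had an unadjusted p under 0.05, against 22.4% of all genes in either direction, and it was called higher by DESeq2. Eif4ebp2, a brake on cap-dependent translation under mTORC1, had 43.5, 32.8 and 62.7 CPM in WT and 80.2, 62.6 and 119 CPM in TCL (log2 fold change 0.91, SE 0.28, adjusted p 0.0998). Its groups overlapped.
Gabpa, an ETS factor, had means of 41.01 ± 3.88 and 52.1 ± 5.52 CPM (adjusted p 0.224), Tsc2, an inhibitor of mTORC1, 38.3 ± 6.82 and 52.7 ± 12.9 CPM (adjusted p 0.243), and Rptor, a subunit of mTORC1, 22.6 ± 2.14 and 29.1 ± 5.81 CPM (adjusted p 0.298). All 5 genes for kinases that phosphorylate the Rps6 protein had a positive log2 fold change, with a median of 0.29 (0.17 with the trend removed); none passed edgeR's test, limma-voom or limma with a trend, and 1, Rps6ka2, had an unadjusted p under 0.05 and was called higher by DESeq2. Rps6ka2 had 8.89, 13.2 and 12.1 CPM in WT and 20.9, 15.3 and 24.7 CPM in TCL (log2 fold change 0.83, SE 0.25, adjusted p 0.0913). It was the 1 gene of the 5 whose groups did not overlap. Of all genes, 14.1% had all TCL libraries above all WT libraries. Rps6kb1, Rps6kb2 and Rps6ka3 had log2 fold changes of 0.21, 0.29 and 0.36, with adjusted p-values of 0.446, 0.440 and 0.446.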

How the data were processed

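Per the submitters' processing notes the tools were cutadapt, STAR 2.4.2a, HTSeq and DESeq2, with the build mm10. The strand setting, annotation and treatment of reads with several matches are not stated there or in the labels. The authors deposited a normalized signal per gene and library, which is counts divided by a size factor: 100% of the values in each library were whole multiples of 1 step (tolerance 0.001), and the whole reads were recovered. The deposited log2 fold change, p-value and adjusted p-value are the authors' own comparison and were used only where their table is named. Columns carry library numbers that do not follow the labels' replicate numbers, so they were mapped to groups only.

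The recovered reads were tested with edgeR 4.0.16 (R 4.3.3): filterByExpr (13010 genes), TMM factors, a robust quasi-likelihood fit of TCL against WT and Benjamini-Hochberg adjustment over all genes, threshold 0.05. SE is the absolute log2 fold change over the square root of F. On simulated counts (12850 genes, 3 against 3) it recovered 23.9% of 1.5-fold, 53.7% of 2-fold and 97.0% of 4-fold changes. Alternatives were other scalings and filters, DESeq2 1.42.0, limma 3.58.1 (voom, or a trend, with a pseudocount of 1 or 0.5 on the deposited values in log2), removal of a loess trend (span 0.4) with length and GC content, and leaving out each library. The fits with length alone, with GC content alone, or with the trend estimated without ribosomal protein genes were added after the data were seen.

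Gene structures are from GENCODE M21 (GRCm38), 1 principal transcript per gene; 24027 of 24421 symbols matched, 651 through a synonym, and all 84 members did. Unique sequence was counted in 50-base stretches, on either strand. Promoters are RefSeq's. Members, lists and tests were chosen with earlier results of these data known. Named are 28 members set by role, every member called, the 8 largest log2 fold changes in each direction at 5 CPM or more, the 4 highest and 4 lowest levels per length, and up to 4 genes per neighbouring list by adjusted p. Other genes, such as Rpl26 or Rpl27, were named after their values were seen. A few genes that the rule takes are left out here.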

Additional observations from a re-analysis of the deposited data

How the results depend on the processing

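The median log2 fold change of the ribosomal protein genes was negative and 0 members were called higher in every setting run. The 7 calls of edgeR stood at 7 to 10 with other scalings, 7 with limma-voom and 6 with limma on log2 values plus 1. Of all genes, 2.28% to 3.01% were lower with other scalings, 2.25% with limma-voom and 2.51% with limma on log2 values plus 1. The calls became 18 of 83 tested members with no filter beyond 1 read, against 2.54% of all genes. With at least 5 CPM in 3 libraries they were 4 of 65 tested members, against 2.05%. They were 33 with DESeq2 (5.67% of all genes), 4 with limma and a pseudocount of 0.5 (2.26%), and 29 at an adjusted p of 0.1 (5.07%). All genes called went from 604 to 1453 with DESeq2 and 1240 at an adjusted p of 0.1. Leaving out 1 library gave 0 to 9 members and 246 (without TCL library 4) to 904 (without TCL library 8) genes; the left-out settings have 2 libraries in 1 group, and the cause was not tested. The median of -0.62 became -0.21 with the length and GC trend removed, -0.22 when that trend was fitted without the ribosomal protein genes, -0.20 with length alone and -0.59 with GC content alone. The share of reads in WT became 3.69% without the 20 genes with most reads, against 2.35% in TCL. No paired analysis was possible because the columns carry library numbers and not the replicate numbers of the labels. No named gene called in the main fit changed sign in any setting. Depth limits the members under 5 CPM, 16 of the 81 tested.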
